A study of Homo sapiens with 24 samples.

Results

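Cholesterol and fatty acid synthesis was followed through a list of 31 genes, made up of 18 enzymes of the sterol steps, 4 regulators of both routes and 9 enzymes of the fatty acid steps. A gene was measured where a probe set of the array was annotated to it and to no other gene, and where it had several, the brightest on average across the 24 arrays was used. In this way 27 of the 31 genes were measured, of 11963 genes on the array: 16 sterol enzymes, the 4 regulators and 7 fatty acid enzymes. All 27 passed the filter on dim signal, a mean log2 value of at least 2.85, which 6782 genes passed; MVD lay only just above it. FDFT1 and ACSL3 were not analysed here, and CYP51A1 and FADS1 were represented only by probe sets shared between genes and were left out.

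The cells were LNCaP, an established line of androgen-responsive human prostate cancer cells. They were nucleofected, a form of electroporation, with 2.5 µg of plasmid that restored miR-130a, miR-203 or miR-205, or with a scramble control, which is the shared control of every comparison with scramble here. RNA was taken from the whole cell (total RNA) or was co-precipitated with AGO2, the Argonaute protein that carries microRNAs and the transcripts paired with them. Each of the 8 groups had 3 arrays labelled biological replicates, and each array received 2 µg of RNA. All values are log2 expression. Equal amounts of RNA went on each array, so a value is a transcript's level relative to the rest of its RNA pool. The plasmid raises a microRNA above its level in this line, and transfected and untransfected cells are measured together, so that a lower level in every cell and a loss in some cells cannot be told apart.

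Of 9 markers of luminal prostate cancer cells, 7 were measured and all 7 passed the filter. KLK3, the gene of prostate-specific antigen, had group means of 10.49 to 13.38, while FOLH1, also a luminal marker, was low at 2.64 to 4.21. Markers of leukocytes (PTPRC, CD3E and CD14), the fibroblast gene DCN and the basal keratin KRT5 lay at the floor of the scale, with group means of 2.34 to 2.36. COL1A1, a fibroblast collagen, had group means of 3.19 to 4.38. COL3A1, another fibroblast collagen, averaged 2.68 over all arrays, above the floor but under the filter. The basal keratin KRT14 averaged 2.37. TP63 was not analysed here. The lowest log2 value equalled 2.344895 for miR-130a, 2.346843 for miR-203 and 2.347327 for both miR-205 and scramble. The deposited values thus fall into 3 sets with a floor of their own, and how these came about is not given in the sources used here. Set and transfection cannot be told apart for miR-130a and miR-203. Among comparisons between transfections, only miR-205 against scramble lay within a set. AGO2-bound and total RNA of the same transfection shared a floor, so their comparison also lay within a set. Signal near the 3′ end exceeded that near the 5′ end of the ACTB control transcript by 2.00 to 2.44 (log2) on arrays of total RNA and by 2.22 to 3.94 on arrays of AGO2-bound RNA, where the replicates also varied more. The part of this 3′ excess in the differences below was not tested.

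Cholesterol and fatty acids are both built from cytosolic acetyl-CoA. The sterol route runs through mevalonate and isoprenoid diphosphates to squalene and then, through lanosterol, to cholesterol. Its enzymes, and many of those that build and desaturate fatty acids, are transcribed under SREBP proteins, the products of SREBF2 and SREBF1. SCAP escorts the SREBP precursors out of the endoplasmic reticulum, and INSIG1 holds them back there when sterols are plentiful. Prostate cancer cells are known for active lipid synthesis, which androgen raises through the same proteins.

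A microRNA pairs with its targets mainly through its seed, bases 2 to 8. The arms of miR-203a and miR-205 that are best known as the active ones are shown from RefSeq (GRCh38.p14) because the AGO2 comparison rests on them, with the seed in capitals. Their other arms and miR-130a are not shown. They lie at chr14:104117469-104117490 and chr1:209432166-209432187, both on the plus strand, and their seeds differ.

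hsa-miR-203a-3p: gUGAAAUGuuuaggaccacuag

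hsa-miR-205-5p: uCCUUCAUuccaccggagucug

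Promoters are shown for genes of the list that changed in total RNA, since SREBP proteins act there together with NF-Y and Sp1. The 200 bases before the gene start are given from RefSeq (GRCh38.p14), read along the gene's own strand, and the 5 genes were chosen after their values were seen. They are HMGCS1 at chr5:43313413-43313612 (minus strand), IDI1 at chr10:1056705-1056904 (minus), LSS at chr21:46228775-46228974 (minus), MSMO1 at chr4:165327469-165327668 (plus) and SREBF2 at chr22:41832905-41833104 (plus). Capitals mark matches, on either strand, to the sterol regulatory element TCACNCCAC, the NF-Y box CCAAT and the Sp1 box GGGCGG.

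HMGCS1: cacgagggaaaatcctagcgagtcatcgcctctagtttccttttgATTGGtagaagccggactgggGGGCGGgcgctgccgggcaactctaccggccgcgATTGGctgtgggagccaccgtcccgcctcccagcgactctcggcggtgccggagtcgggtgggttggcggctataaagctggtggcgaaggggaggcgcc

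IDI1: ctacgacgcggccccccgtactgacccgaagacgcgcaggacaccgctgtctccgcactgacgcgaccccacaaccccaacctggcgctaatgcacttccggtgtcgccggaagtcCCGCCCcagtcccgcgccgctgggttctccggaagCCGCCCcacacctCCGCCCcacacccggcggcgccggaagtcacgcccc

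LSS: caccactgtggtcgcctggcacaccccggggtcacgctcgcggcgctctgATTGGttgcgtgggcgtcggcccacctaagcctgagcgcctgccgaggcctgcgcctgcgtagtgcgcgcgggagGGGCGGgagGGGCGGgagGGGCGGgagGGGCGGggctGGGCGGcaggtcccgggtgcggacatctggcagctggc

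MSMO1: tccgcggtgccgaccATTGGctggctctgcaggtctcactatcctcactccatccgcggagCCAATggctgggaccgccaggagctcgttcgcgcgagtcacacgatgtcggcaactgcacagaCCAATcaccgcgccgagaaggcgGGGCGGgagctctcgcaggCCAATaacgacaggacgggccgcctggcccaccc

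SREBF2: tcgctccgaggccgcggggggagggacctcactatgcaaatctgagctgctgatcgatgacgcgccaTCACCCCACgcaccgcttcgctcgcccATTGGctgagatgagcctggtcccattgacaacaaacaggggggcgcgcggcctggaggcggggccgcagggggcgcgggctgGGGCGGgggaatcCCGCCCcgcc

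In the 200 bases shown, MSMO1 held 4 NF-Y boxes, HMGCS1 2, LSS and SREBF2 1 each and IDI1 none, while LSS held 5 Sp1 boxes. Over 250 bases before the start, a promoter was at hand for 27 of the 31 listed genes. These are not the 27 measured genes. ACSL3, CYP51A1 and FADS1, which were not measured, are among them, and the measured SQLE, ACAT2 and FASN are not. The CCAAT box was found in 18 of the 27 (66.7%), against 33% of 27305 promoters and 34.5% of 15842 promoters of protein-coding genes. GGGCGG was found in 24 of the 27 (88.9%), against 42.3% and 56%. The sterol regulatory element in the letters searched was found in SREBF2 alone, 1 of 27, against 0.875% of all promoters and 0.884% of coding ones. No base of these promoters belonged to more than 1 kind of match, and a match describes the letters only.

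In total RNA, 11 members rose and 2 fell after miR-130a, where 29.3% of all genes were called. After miR-205, 13 rose and 3 fell (23.5% of all genes), and after miR-203, 0 rose and 13 fell (39.6%). MSMO1, an oxidase of the ring demethylation, and HMGCS1, the synthase that makes HMG-CoA, were the members of smallest p after miR-130a. SQLE, the epoxidase that is a slow step of the squalene branch, rose after miR-130a and miR-205 and fell after miR-203. Changes below are log2 differences ± SE from limma over 3 arrays per group, called at a Benjamini-Hochberg adjusted p under 0.05 over 6782 genes.

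**Figure D1:**
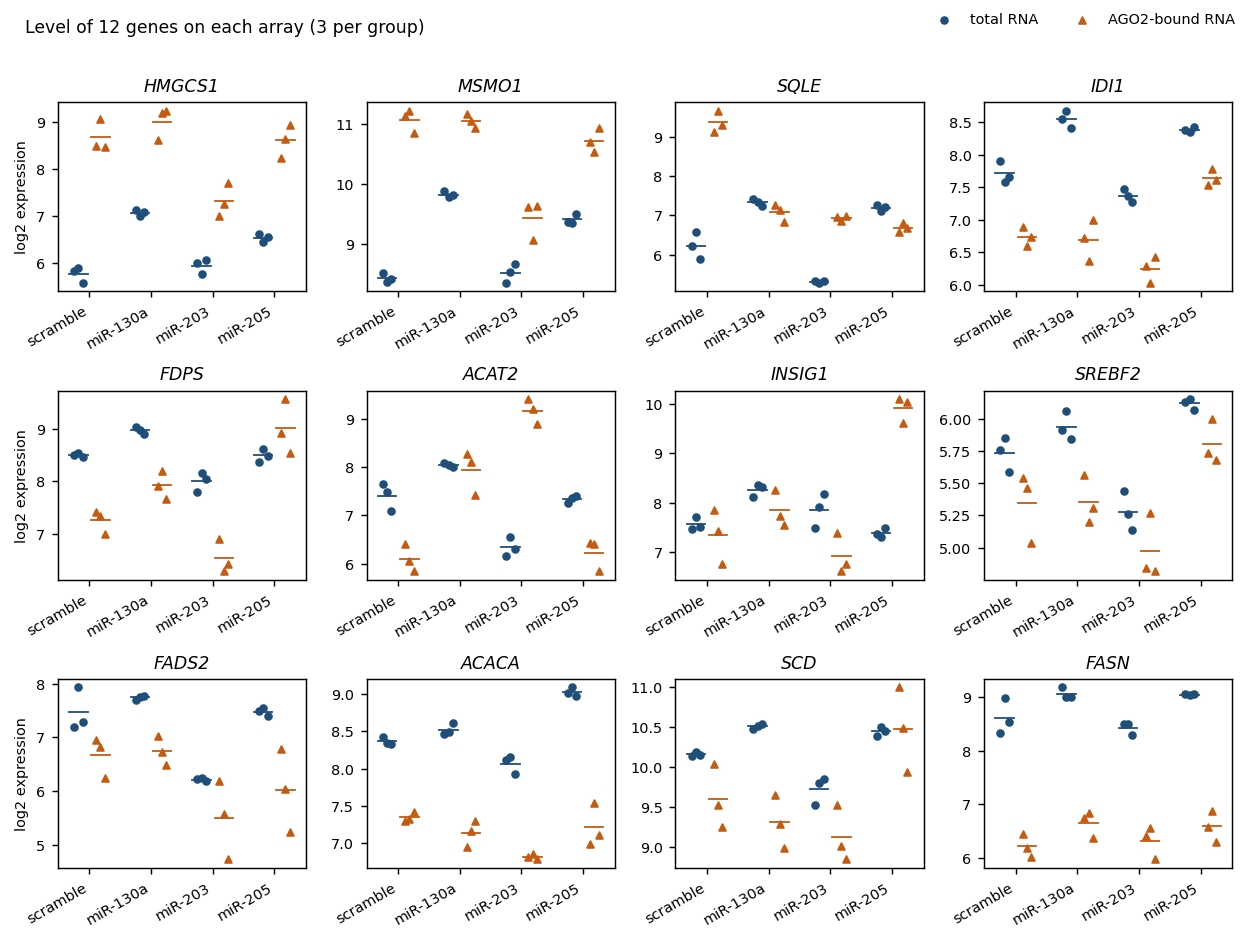
Log2 expression (vertical axes, each with its own range) of 12 genes on every array, by transfection. Circles are total RNA, triangles AGO2-bound RNA and lines the means of 3 arrays. In total RNA, HMGCS1 lay at 5.57 to 5.88 after scramble and at 6.99 to 7.11 after miR-130a, and in AGO2-bound RNA SQLE lay at 9.12 to 9.65 after scramble and at or below 7.27 after each microRNA.

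After miR-130a, 11 of the 27 members rose and 2 fell in total RNA, 48.1% in all, where 29.3% of all genes tested were called, 15.9% higher and 13.3% lower. Their median difference was 0.27, against 0.01 over all genes. The risers were 8 of 16 sterol enzymes, INSIG1 and 2 of 7 fatty acid enzymes (SCD and FASN). The 7 fatty acid enzymes all had positive differences, with a median of 0.28. The 2 members that fell were sterol enzymes.

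HMGCS1 read 5.82, 5.88 and 5.57 on the scramble arrays and 7.11, 6.99 and 7.08 after miR-130a, a rise of 1.30 ± 0.11 (adjusted p = 2.9e-06, 2.47-fold). MSMO1 read 8.52, 8.37 and 8.43 after scramble and 9.88, 9.78 and 9.82 after miR-130a, a rise of 1.39 ± 0.09 (adjusted p = 6.0e-07). All 3 miR-130a arrays were above all 3 scramble arrays for both genes. SQLE read 6.22, 6.58 and 5.89 and then 7.42, 7.34 and 7.24, a rise of 1.10 ± 0.14 (adjusted p = 0.00010). IDI1, which interconverts the isoprenoid diphosphates, went from 7.90, 7.58 and 7.65 to 8.55, 8.67 and 8.41, a rise of 0.83 ± 0.10. The groups did not overlap for any of the 13 members called, nor for 1937 of the 1984 genes called over the whole array.

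Smaller rises were found for ACAT2 (0.63 ± 0.13), which joins acetyl-CoA units in the cytosol, for FDPS (0.47 ± 0.10), the farnesyl diphosphate synthase, and for LSS (0.46 ± 0.09), which closes the sterol ring. INSIG1 rose by 0.70 ± 0.15 (adjusted p = 0.0040), from 7.47, 7.71 and 7.50 to 8.11, 8.36 and 8.32. SCD, the desaturase that makes oleic acid, rose by 0.35 ± 0.09, and its 3 scramble arrays lay within 10.14 to 10.18. PMVK, the phosphomevalonate kinase, fell by 0.58 ± 0.14 (adjusted p = 0.0079), and TM7SF2, a sterol reductase of the endoplasmic reticulum, fell by 0.46 ± 0.09. These and the 4 rises above kept their call when any single array was left out. HSD17B7, a keto-reductase of the ring steps, at 0.25 ± 0.07, lost its call without miR-130a replicate 3 (adjusted p = 0.073) or scramble replicate 3 (0.079). FASN, the fatty acid synthase, at 0.44 ± 0.14 (adjusted p = 0.029), lost its call without any of the 3 miR-130a arrays (adjusted p = 0.10, 0.055 and 0.058) or without scramble replicate 1 (0.10) or 3 (0.090). With each array centred on its median, which moved the median of all genes from 0.01 to -0.05, both HSD17B7 (adjusted p = 0.069) and FASN (0.055) were no longer called. FASN's other probe set lay near the floor and differed by -0.01.

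After miR-203, 13 of the 27 members fell in total RNA and 0 rose, where 39.6% of all genes were called, 19.8% in each direction. The median difference of the members was -0.29, against 0.01 over all genes. The falls covered 6 of 16 sterol enzymes, 3 of 4 regulators and 4 of 7 fatty acid enzymes. At an adjusted p of 0.05 in limma, ACLY, the citrate lyase that supplies cytosolic acetyl-CoA, missed a rise narrowly (0.20 ± 0.08, adjusted p = 0.051). It passed with robust limma settings (adjusted p = 0.020), after quantile normalization (0.019) and without the filter (0.019). The dimmer probe sets of ACLY did not share a direction, at -0.13 and 0.17.

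FADS2, the desaturase that acts first on essential fatty acids, read 7.20, 7.93 and 7.28 after scramble and 6.22, 6.24 and 6.18 after miR-203, a fall of 1.26 ± 0.15 (2.39-fold, adjusted p = 5.1e-05). The second scramble array was high, and all 3 miR-203 arrays were below all 3 scramble arrays. ACAT2 went from 7.64, 7.49 and 7.09 to 6.17, 6.56 and 6.30, a fall of 1.07 ± 0.13. SQLE went from 6.22, 6.58 and 5.89 to 5.33, 5.29 and 5.33, a fall of 0.92 ± 0.14 (adjusted p = 0.00025). The 3 miR-203 arrays of SQLE were closer together than its scramble arrays. SCAP, the SREBP escort, went from 7.04, 6.84 and 6.93 to 6.33, 6.11 and 5.91, a fall of 0.82 ± 0.12 (adjusted p = 0.00017).

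SREBF2, the gene of the SREBP that drives sterol synthesis, went from 5.76, 5.85 and 5.59 to 5.44, 5.26 and 5.14, a fall of 0.45 ± 0.10 (adjusted p = 0.0037). SREBF1, whose product drives fatty acid genes most, fell by 0.36 ± 0.08. FDPS fell by 0.50 ± 0.10, TM7SF2 by 0.56 ± 0.09, SC5D, a desaturase of the sterol ring, by 0.44 ± 0.07, and ELOVL5, an elongase of polyunsaturated fatty acids, by 0.42 ± 0.10. HMGCS1 (0.18 ± 0.11, adjusted p = 0.18) and MSMO1 (0.09 ± 0.09, adjusted p = 0.48), the genes of smallest p after miR-130a, were not called. IDI1 fell by 0.35 ± 0.10 (adjusted p = 0.018), a call lost without miR-203 replicate 3 (0.062) or scramble replicate 1 (0.064). The other probe set of IDI1, about as bright as the set used, differed by only -0.06. Probe sets disagreed for ACACA, the acetyl-CoA carboxylase, at -0.31 in the set used and 0.27 in a dimmer one, and ACACA also lost its call without miR-203 replicate 3 (adjusted p = 0.051). For SCD the set used gave -0.43 and the others -0.31, 0.14 and 0.26. INSIG1 was not called at 0.29 ± 0.15, while its other 2 probe sets differed by -0.62 and -0.69, so no direction was given for it.

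Among arrays with the same floor, miR-205 came with 13 members higher and 3 lower than scramble in total RNA, where 23.5% of all genes were called, 10.1% higher and 13.3% lower. The member median was 0.16, against -0.01 over all genes. Of the fatty acid enzymes 5 of 7 rose, with a median of 0.43; of the sterol enzymes 7 of 16 rose and 3 fell, with a median of 0.08. SREBF2 was the 1 regulator called.

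Among the fatty acid enzymes, ACACA, the committed step, read 8.43, 8.35 and 8.33 after scramble and 9.02, 9.09 and 8.97 after miR-205, a rise of 0.66 ± 0.09 (adjusted p = 0.00017). ELOVL6, the elongase of palmitate, went from 6.38, 5.84 and 5.82 to 6.87, 6.79 and 7.05, a rise of 0.89 ± 0.13 (1.86-fold). ACLY went from 9.01, 9.15 and 9.09 to 9.49, 9.65 and 9.58, a rise of 0.49 ± 0.08. For these 3 enzymes the miR-205 arrays lay above every scramble array, and the calls held when any single array was left out. FASN (0.43 ± 0.14, adjusted p = 0.042) and SCD (0.29 ± 0.09, adjusted p = 0.036) were near the threshold. FASN was not called without any of the 3 miR-205 arrays or scramble replicate 1 or 3 (adjusted p = 0.079 to 0.14), and SCD was not called without any 1 of the 6 arrays (0.058 to 0.097). FADS2 (0.01 ± 0.15) and ELOVL5 (-0.13 ± 0.10) were not called.

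Among the sterol enzymes, MSMO1 read 9.37, 9.36 and 9.51 after miR-205, a rise over scramble of 0.98 ± 0.09 (adjusted p = 2.2e-05). SQLE read 7.25, 7.12 and 7.20 and rose by 0.96 ± 0.14, and HMGCS1 read 6.60, 6.43 and 6.54 and rose by 0.77 ± 0.11. LSS went from 6.51, 6.62 and 6.73 to 7.52, 7.30 and 7.43, a rise of 0.80 ± 0.09, and IDI1 rose by 0.67 ± 0.10. These 5 sterol enzymes had also risen after miR-130a, against the same scramble arrays. FDPS (0.00 ± 0.10 in size) and ACAT2 (-0.07 ± 0.13), which rose after miR-130a, were not called after miR-205, and INSIG1 had a difference of -0.18 ± 0.15.

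The other calls after miR-205 were small and each was lost without at least 1 array. DHCR7, the last step to cholesterol, rose by 0.47 ± 0.13 (not called without miR-205 replicate 2 or 3 or scramble replicate 3, adjusted p = 0.072 to 0.088). HSD17B7 rose by 0.23 ± 0.07 (not called without any 1 of the 6 arrays, 0.054 to 0.13), and SREBF2 by 0.38 ± 0.10 (not called without miR-205 replicate 1 or scramble replicate 3, 0.050 and 0.068). The falls were TM7SF2 at 0.36 ± 0.09 (not called without miR-205 replicate 1 or scramble replicate 2 or 3, 0.051 to 0.067), PMVK at 0.42 ± 0.14 (not called without miR-205 replicate 1 or 3 or any scramble array, 0.066 to 0.15) and SC5D at 0.25 ± 0.07 (not called without any miR-205 array or scramble replicate 2, 0.064 to 0.095). The count of members called was 9 without miR-205 replicate 1, 10 without miR-205 replicate 3, 9 without scramble replicate 3 and 11 to 12 without another array. With the spread estimated from all 24 arrays, 8 members were called after each of the 3 microRNAs in total RNA.

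**Figure D2:**
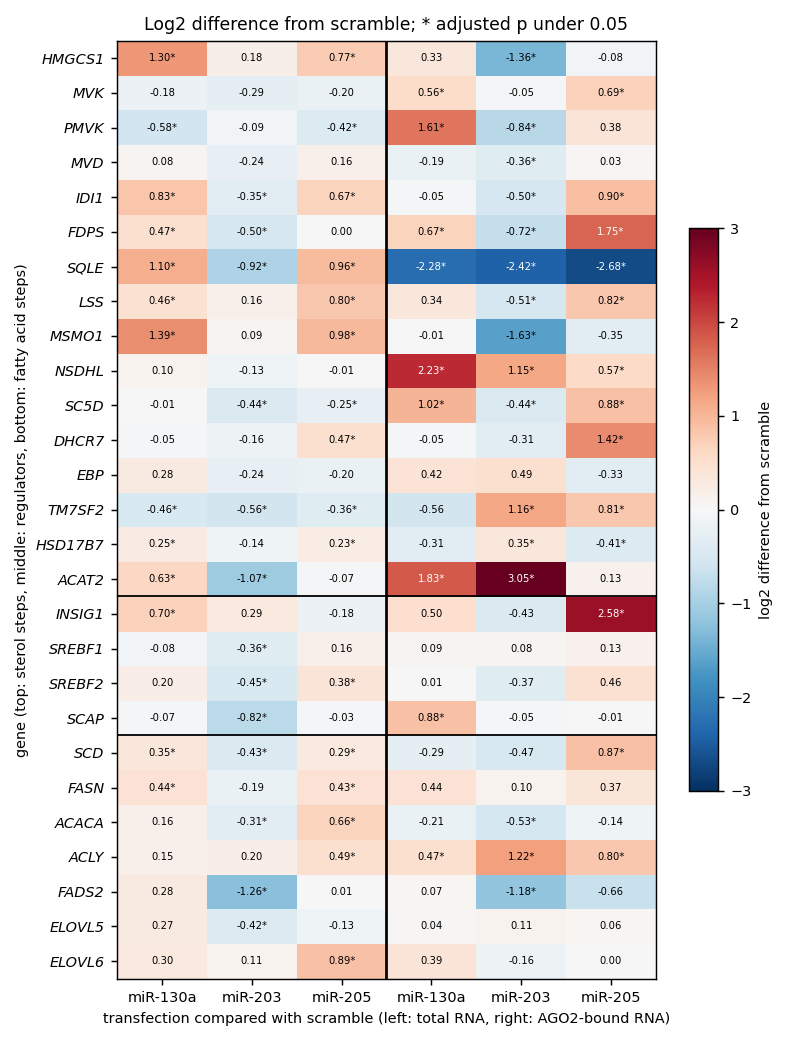
Log2 difference from scramble of each measured member (rows; sterol steps, regulators and fatty acid steps from top to bottom) for each microRNA (columns; total RNA left, AGO2-bound RNA right), with an asterisk at an adjusted p under 0.05. SQLE is the member with the most negative difference in all 3 AGO2-bound columns (-2.28, -2.42 and -2.68), and the miR-203 column of total RNA holds 13 falls and no rise.

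The microRNAs were also compared with each other in total RNA, without the scramble arrays. Between miR-203 and miR-205, 20 of 27 members were lower after miR-203 and 1 was higher, where 41.8% of all genes were called, 23.2% higher and 18.6% lower. The member median was -0.59, against 0.05 over all genes. All 7 fatty acid enzymes were lower, led by FADS2 (-1.27 ± 0.15) and ACACA (-0.97 ± 0.09). SQLE was lower by 1.88 ± 0.14, with 5.33, 5.29 and 5.33 after miR-203 and 7.25, 7.12 and 7.20 after miR-205. SREBF2 (-0.84 ± 0.10), SCAP (-0.79 ± 0.12) and SREBF1 (-0.52 ± 0.08) were lower too. The exception, INSIG1 (0.46 ± 0.15), is the gene whose probe sets disagreed after miR-203.

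Against miR-203, miR-130a had 20 members higher and PMVK lower, where 45.2% of all genes were called, 23.8% higher and 21.4% lower. SQLE differed by 2.02 ± 0.14, ACAT2 by 1.70 ± 0.13, FADS2 by 1.54 ± 0.15 and MSMO1 by 1.30 ± 0.09. Between miR-130a and miR-205, 8 members were higher after miR-130a and 6 were lower, where 38.8% of all genes were called, 21.9% higher and 16.9% lower. The member median was 0.03. INSIG1 (0.88 ± 0.15), ACAT2 (0.71 ± 0.13), HMGCS1 (0.53 ± 0.11) and FDPS (0.48 ± 0.10) were higher after miR-130a. ELOVL6 (-0.59 ± 0.13), DHCR7 (-0.52 ± 0.13) and ACACA (-0.50 ± 0.09) were higher after miR-205. SQLE (0.14 ± 0.14) and IDI1 (0.16 ± 0.10) did not pass the test between these microRNAs.

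The AGO2 precipitate held these transcripts in different proportions from total RNA even with scramble, where no microRNA was restored. There, 3 members were higher in AGO2-bound RNA and 21 were lower, where 72.9% of all genes were called in this fit of all 24 arrays, 35.1% higher and 37.8% lower. The member median was -0.56, against -0.05 over all genes. The 3 higher members were SQLE (3.13 ± 0.15, 8.74-fold), HMGCS1 (2.92 ± 0.20) and MSMO1 (2.63 ± 0.14). SQLE read 9.12, 9.65 and 9.30 in AGO2-bound RNA and 6.22, 6.58 and 5.89 in total RNA. MSMO1 read 11.13, 11.22 and 10.85 against 8.52, 8.37 and 8.43, and HMGCS1 read 8.49, 9.06 and 8.47 against 5.82, 5.88 and 5.57. For these 3 sterol enzymes the arrays of both kinds of RNA were far apart.

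All 7 fatty acid enzymes were lower in AGO2-bound than in total RNA with scramble. FASN was lowest, at 6.44, 6.18 and 6.01 against 8.33, 8.98 and 8.54, a difference of -2.41 ± 0.18. In the other transfections FASN differed by -2.41 ± 0.18 after miR-130a, by -2.12 ± 0.18 with miR-203 and by -2.46 ± 0.18 with miR-205. Of the fatty acid calls with scramble, those of FASN and ACACA (-1.03 ± 0.13) held without any single array. ELOVL6, ELOVL5, FADS2, SCD and ACLY, and the sterol gene DHCR7 and SREBF2, lost theirs without at least 1 array, and with AGO2 scramble replicate 3 left out the count over all members was 17 in place of 24.

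HMGCS1 and MSMO1 stayed higher in AGO2-bound than in total RNA in each transfection, while SQLE did not. HMGCS1 differed by 1.95 ± 0.20 after miR-130a, by 1.37 ± 0.20 with miR-203 and by 2.07 ± 0.20 with miR-205, and MSMO1 by 1.23 ± 0.14, 0.92 ± 0.14 and 1.30 ± 0.14. SQLE differed by -0.26 ± 0.15 after miR-130a (adjusted p = 0.13), by 1.62 ± 0.15 with miR-203 and by -0.51 ± 0.15 with miR-205. After miR-130a, 5 members were higher and 15 lower in AGO2-bound RNA, where 71.6% of all genes were called, 33.3% higher and 38.3% lower. With miR-203 the members split into 7 higher and 14 lower, where 71.9% of all genes were called, 34.7% higher and 37.2% lower. With miR-205 they split into 7 higher and 12 lower, where 72.7% of all genes were called, 36.6% higher and 36.1% lower. In each transfection more members were lower than higher. These counts rest on 1 probe set per gene, and other probe sets did not always share its direction. For DHCR7, called higher with miR-205, the other probe set read 6.55 in AGO2-bound and 7.29 in total RNA.

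**Figure D3:**
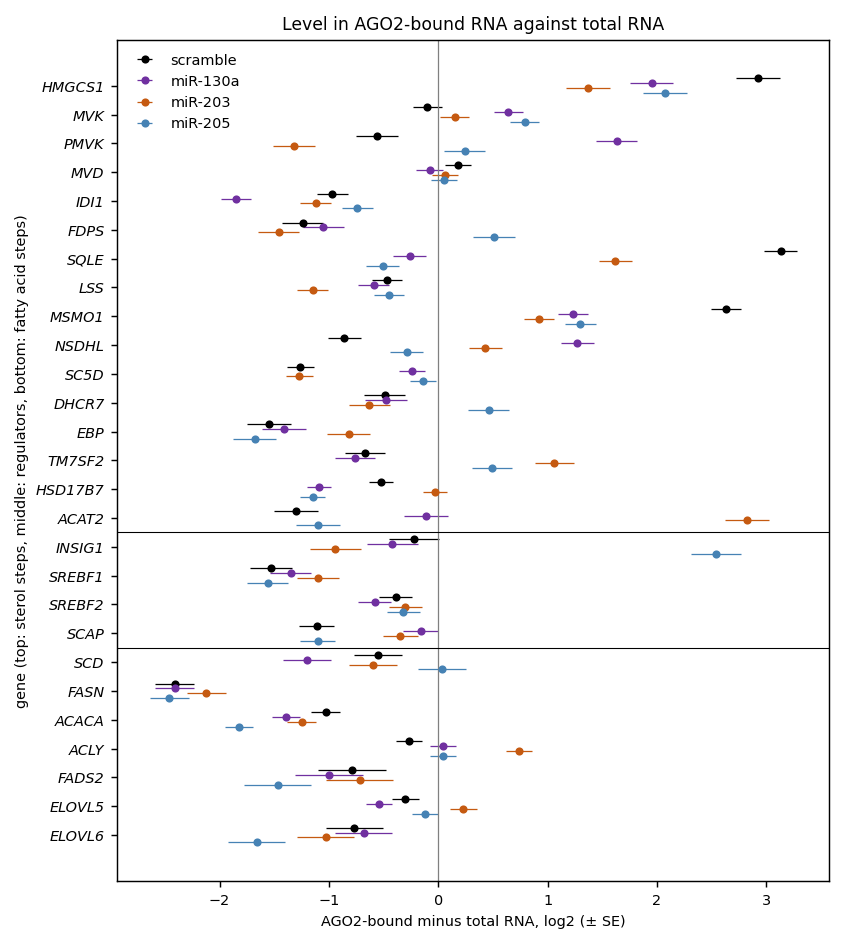
Difference between AGO2-bound and total RNA (horizontal axis, log2; positive values are higher in AGO2-bound RNA) of each measured member in the 4 transfections; points are fitted differences and bars their SE. HMGCS1 and MSMO1 lie to the right of 0 in all 4 transfections, FASN lies near -2.4 to -2.1 in all 4, and SQLE lies at 3.13 with scramble and at 1.62 or below after the microRNAs.

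In AGO2-bound RNA compared with scramble, SQLE fell after all 3 microRNAs. Its scramble arrays read 9.12, 9.65 and 9.30. The miR-130a arrays read 7.27, 7.13 and 6.83. Those of miR-203 read 6.97, 6.86 and 6.98, and those of miR-205 read 6.57, 6.80 and 6.67. The falls were 2.28 ± 0.16 (adjusted p = 1.1e-07), 2.42 ± 0.16 (4.7e-08) and 2.68 ± 0.16 (1.4e-08), which correspond to 4.87-, 5.37- and 6.41-fold. All 3 comparisons use the same scramble arrays. Every array of the microRNAs was below every scramble array, and the calls held without any single array.

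The 3′ excess of the control transcripts moved with transfection in AGO2-bound RNA. For ACTB it was 2.93 to 3.84 (log2) on the scramble arrays, 2.22 to 2.78 after miR-130a, 2.30 to 2.93 after miR-203 and 3.20 to 3.94 after miR-205. For GAPDH it was 1.23 to 1.57 with scramble, 1.20 to 1.30 after miR-130a, 0.60 to 0.89 after miR-203 and 1.38 to 1.72 after miR-205. For ACTB, the miR-130a arrays lay below every scramble array and the miR-203 arrays at or below every scramble array. For GAPDH, the miR-203 arrays lay below every scramble array. The part of the 3′ excess in the AGO2-bound changes was not tested.

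After miR-130a, 8 members rose and SQLE fell in AGO2-bound RNA, where 38.5% of all genes were called, 18.6% higher and 19.9% lower. Over the 27 members the median difference was 0.33, against -0.05 over all genes. NSDHL, a dehydrogenase of the ring demethylation, read 3.84, 3.66 and 3.41 after scramble and 5.68, 6.00 and 5.93 after miR-130a, a rise of 2.23 ± 0.16 (4.69-fold, adjusted p = 1.2e-07). ACAT2 went from 6.41, 6.05 and 5.85 to 8.27, 8.10 and 7.43, a rise of 1.83 ± 0.24. The span of ACAT2 overlaps those of other protein-coding genes in RefSeq (GRCh38.p14), as for 6 of the 27 members, and which transcript its 1 probe set reads was not checked. PMVK went from 6.30, 6.42 and 6.28 to 7.97, 8.28 and 7.59, a rise of 1.61 ± 0.22 (adjusted p = 4.8e-05). In these 3 genes no array of one group reached the other.

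SC5D (1.02 ± 0.16), SCAP (0.88 ± 0.19) and MVK, the mevalonate kinase (0.56 ± 0.15), rose with calls that held without any single array. FDPS (0.67 ± 0.24) lost its call without any 1 of 5 arrays, all but miR-130a replicate 3 (adjusted p = 0.051 to 0.17), and ACLY (0.47 ± 0.15) without miR-130a replicate 1 or 2 or scramble replicate 2 or 3 (0.069 to 0.10). HMGCS1 (0.33 ± 0.24) and MSMO1 (-0.01 ± 0.18), which rose in total RNA, were not called. Arrays with the same replicate number deviated together here, and with the number as a block 13 members were higher and 2 lower. The block added LSS (0.34, adjusted p = 0.044), EBP, an isomerase of the ring steps (0.42, 0.047), INSIG1 (0.50, 0.029), FASN (0.44, 0.0097) and ELOVL6 (0.39, 0.027) to the rises and TM7SF2 (-0.56, 0.0037) to the falls.

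After miR-203, 5 members rose and 11 fell in AGO2-bound RNA, where 51.4% of all genes were called, 22.7% higher and 28.8% lower. The member median was -0.36, against -0.09 over all genes. ACAT2 had the largest rise of any member in this comparison, from 6.41, 6.05 and 5.85 to 9.40, 9.20 and 8.88, a difference of 3.05 ± 0.24 (8.31-fold, adjusted p = 2.0e-07). ACLY rose by 1.22 ± 0.15, from 9.04, 8.65 and 8.74 to 9.90, 10.26 and 9.94, and its other 2 probe sets differed by 2.10 and 2.00. TM7SF2 rose by 1.16 ± 0.23 and NSDHL by 1.15 ± 0.16. Both genes had miR-203 arrays above all scramble arrays.

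MSMO1 fell by 1.63 ± 0.18, from 11.13, 11.22 and 10.85 to 9.62, 9.07 and 9.63, and HMGCS1 by 1.36 ± 0.24, from 8.49, 9.06 and 8.47 to 6.99, 7.24 and 7.70. PMVK fell by 0.84 ± 0.22 and ACACA by 0.53 ± 0.15. The other falls lost their call without at least 1 array: FADS2 at 1.18 ± 0.38 (without miR-203 replicate 3 or scramble replicate 1 or 2, adjusted p = 0.062 to 0.091), FDPS at 0.72 ± 0.24, LSS at 0.51 ± 0.17, IDI1 at 0.50 ± 0.17, SC5D at 0.44 ± 0.16 and MVD, the mevalonate diphosphate decarboxylase, at 0.36 ± 0.13. HSD17B7, at 0.35 ± 0.13, also lost its call. The count of 16 members was 10 without scramble replicate 1 and 11 without scramble replicate 2. Without scramble replicate 1, the calls of FADS2 (adjusted p = 0.063), FDPS (0.076), LSS (0.078), IDI1 (0.091), MVD (0.13) and HSD17B7 (0.075) were lost. With the replicate number as a block, which pairs these arrays too, 20 members were called. The block added EBP (0.49, adjusted p = 0.018), INSIG1 (-0.43, 0.049), SREBF2 (-0.37, 0.047) and SCD (-0.47, 0.0034). Probe sets disagreed for SCD, where the others differed by -0.09, 0.27 and 0.39. The other sets of EBP differed by 0.11 and 0.00, that of SREBF2 by -0.11 and those of INSIG1 by -0.69 and -0.48.

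After miR-205, 11 members rose and 2 fell in AGO2-bound RNA, where 44.0% of all genes were called, 20.4% higher and 23.7% lower. Their median difference was 0.37 over the 27 members, against -0.06 over all genes. INSIG1, the sterol-responsive brake on SREBP, went from 7.84, 7.42 and 6.76 to 10.10, 9.62 and 10.05, a rise of 2.58 ± 0.28 (5.99-fold, adjusted p = 4.6e-06), and its other probe sets rose by 2.22 and 1.07. FDPS went from 7.42, 7.34 and 7.00 to 8.91, 9.56 and 8.54, a rise of 1.75 ± 0.24 (adjusted p = 4.9e-05). DHCR7 went from 6.38, 5.86 and 5.56 to 7.20, 7.68 and 7.17, a rise of 1.42 ± 0.23. In total RNA, INSIG1 and FDPS had not been called after miR-205.

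IDI1 (0.90 ± 0.17), SC5D (0.88 ± 0.16), LSS (0.82 ± 0.17), ACLY (0.80 ± 0.15), MVK (0.69 ± 0.15) and NSDHL (0.57 ± 0.16) also rose, with calls that held without any single array. SCD rose by 0.87 ± 0.28, but its groups overlapped (10.99, 10.48 and 9.94 after miR-205; 10.04, 9.52 and 9.25 after scramble). SCD lost its call without miR-205 replicate 1 or 2 or scramble replicate 2 or 3 (adjusted p = 0.059 to 0.098). TM7SF2 (0.81 ± 0.23) lost its call without miR-205 replicate 2 (0.056), and the fall of HSD17B7 (0.41 ± 0.13) was not called without miR-205 replicate 2 or 3 or scramble replicate 1 or 3 (0.054 to 0.078). HMGCS1 (-0.08 ± 0.24) and MSMO1 (-0.35 ± 0.18), which rose in total RNA, were not called.

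The difference between the change in AGO2-bound RNA and the change in total RNA was then tested for each microRNA with all 24 arrays, as an interaction. For miR-130a it was called for 11 members, 6 higher and 5 lower, where 34.5% of all genes were called, 16.2% higher and 18.4% lower. For miR-203 it was called for 13 members, 8 higher and 5 lower, where 49.1% of all genes were called, 22.1% higher and 27.0% lower. For miR-205 it was again called for 13, 8 higher and 5 lower, where 42.8% of all genes were called, 21.1% higher and 21.7% lower. The member medians were -0.09, 0.00 in size and 0.07, against -0.06, -0.09 and -0.06 over all genes. 

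MSMO1 was lower on this measure for each microRNA, at -1.40 ± 0.20 with miR-130a, -1.71 ± 0.20 with the miR-203 plasmid and -1.33 ± 0.20 with that of miR-205. HMGCS1 was also lower, at -0.97 ± 0.28, -1.54 ± 0.28 and -0.84 ± 0.28; its call after miR-205 was lost without at least 1 array. NSDHL was higher, at 2.13 ± 0.21, 1.28 ± 0.21 and 0.57 ± 0.21. Its call after miR-205 (adjusted p = 0.032) was lost in 5 of 12 fits with 1 array left out (0.051 to 0.10). After miR-205, the NSDHL probe set used differed by -0.01 in total RNA and by 0.57 in AGO2-bound RNA. The other NSDHL set, about as bright, rose by 0.54 and 0.82, a smaller gap. It rose by 0.60 and 2.36 after miR-130a and by 0.21 and 1.62 after miR-203. MVK was higher after miR-130a (0.74 ± 0.19) and miR-205 (0.89 ± 0.19). After miR-130a, the MVK probe set used differed by -0.18 in total RNA and by 0.56 in AGO2-bound RNA. Its other probe sets rose in both, by 0.23 and 0.44 in total RNA and by 0.47 and 0.73 in AGO2-bound RNA. The gap between the kinds of RNA was thus smaller in them. SCAP was higher after miR-130a (0.95 ± 0.23) and miR-203 (0.77 ± 0.23). INSIG1 (2.76 ± 0.33) and FDPS (1.75 ± 0.27) were higher after miR-205. Among the fatty acid enzymes the difference was called for ACLY (1.01 ± 0.17) and ELOVL5 (0.54 ± 0.17) after miR-203. It was called for ACACA (-0.79 ± 0.18) after miR-205 and for none after miR-130a. After miR-130a, the ACLY probe set used differed by 0.15 in total RNA and by 0.47 in AGO2-bound RNA. The others of ACLY differed by 0.20 and 0.32 in total RNA and by 1.63 and 1.07 in AGO2-bound RNA. They were not tested on their own.

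**Figure D4:**
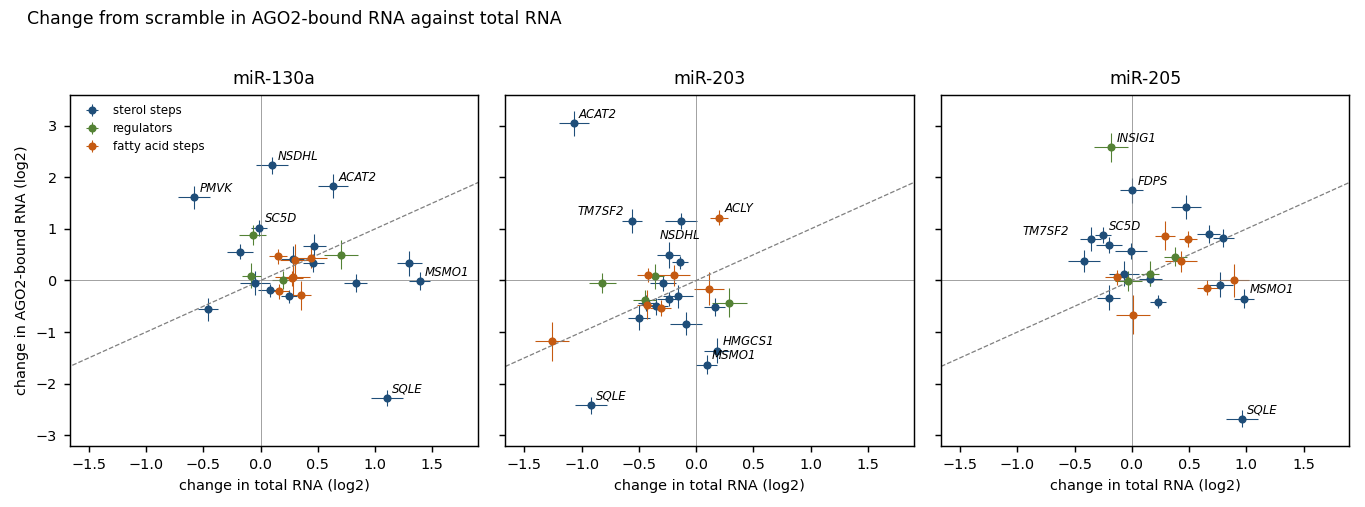
Change from scramble in AGO2-bound RNA (vertical axis, log2) against the change in total RNA (horizontal axis, log2) for the measured members; bars are SE, the dashed line marks equal change, and members with a called difference of at least 1 are named. SQLE lies below the line in each panel, ACAT2 lies at -1.07 in total RNA and 3.05 in AGO2-bound RNA after miR-203, and INSIG1 lies highest after miR-205.

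Of the regulators, SREBF1 was called against scramble only after miR-203 in total RNA among the 6 comparisons. EBP was called in none of the 6 without the replicate block, with differences from -0.33 to 0.49, and with it in AGO2-bound RNA after miR-130a and miR-203, as given above. MVD was called only for its fall in AGO2-bound RNA after miR-203. There it read 2.59, 2.78 and 2.59 after miR-203 and 3.14, 2.97 and 2.93 after scramble, near the filter. In total RNA it read 2.59 on each miR-203 array. So close to the floor, a fall of MVD and the set of the values cannot be told apart. ELOVL5 was called only in total RNA after miR-203.

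Of 45 related genes of sterol uptake, transport, storage and fatty acid handling, 32 were measured and 22 passed the filter. STARD4 was not analysed here. In total RNA, 2 rose and 4 fell after miR-130a, 2 rose and 7 fell after miR-203, and 4 rose and 1 fell after miR-205. These are 27.3%, 40.9% and 22.7% of the related genes, close to the 29.3%, 39.6% and 23.5% of all genes called. CPT1A, which admits fatty acids to mitochondria for oxidation, fell by 2.12 ± 0.13 after miR-203 (adjusted p = 2.8e-07) and by 0.54 ± 0.13 after miR-130a. INSIG2, a paralogue of INSIG1, rose by 1.02 ± 0.12 after miR-203 and fell by 0.39 ± 0.12 after miR-130a. LPIN1, a phosphatidate phosphatase, fell by 0.53 ± 0.09 after miR-203 and rose by 0.77 ± 0.09 after miR-205.

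In AGO2-bound RNA, 1 related gene rose and 4 fell after miR-130a, 5 rose and 8 fell after miR-203, and 7 rose and 3 fell after miR-205. These are 22.7%, 59.1% and 45.5% of the related genes, against 38.5%, 51.4% and 44.0% of all genes called. SLC25A1, the mitochondrial citrate carrier that supplies ACLY's substrate, rose by 3.56 ± 0.25 in AGO2-bound RNA after miR-205 (adjusted p = 7.7e-08) and fell by 1.72 ± 0.12 in total RNA. TECR, which completes fatty acid elongation, rose by 2.04 ± 0.18 in AGO2-bound RNA after miR-205. The span of TECR overlaps that of the protein-coding gene DNAJB1, and which transcript its probe set reads was not checked. HSD17B12, an earlier step of the same cycle, fell by 1.30 ± 0.16, 0.87 ± 0.16 and 1.46 ± 0.16 in AGO2-bound RNA of the 3 microRNAs, in the order used above; which transcript its probe set reads where gene spans overlap was not checked. MYLIP, an E3 ubiquitin ligase, was higher in AGO2-bound than in total RNA by 4.32 ± 0.14 with scramble and by 3.28 to 4.58 after the microRNAs.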

How the data were processed

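Affymetrix oligonucleotide arrays for human genes measured 22277 probe sets in 24 samples. Log2 expression for each probe set is what the authors deposited; per the submitters' processing notes R 2.9.0, GCRMA and RMA were used, in an order not given in the sources used here. Probe sets were named from the platform annotation, and 19064 had 1 gene symbol. The lists, including the 31 genes and the related genes, and the rule were chosen with earlier results of these data known. For total RNA and for AGO2-bound RNA compared with scramble, every called member is given with values. In the other comparisons only some of the called members are given. Alternatives were followed for up to 10 called members of smallest p per comparison, whose groups did not overlap. Lack of overlap was not asked of the interaction.

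Tests used limma 3.58.1 in R 4.3.3 on the log2 values, with 1 probe set per gene and Benjamini-Hochberg adjustment over 6782 genes. The 12 arrays of a kind of RNA shared a spread; comparisons of AGO2-bound with total RNA used all 24 arrays. The procedure was tested on simulated data. The arrays are labelled biological replicates, but nothing says whether these came from separate cultures. The p-values thus reflect only how these arrays vary, which may be partly or wholly technical, and 3 arrays per group limit the precision. Deviations of arrays with the same replicate number correlated at 0.11 to 0.52 between AGO2-bound miR-130a and scramble and at 0.16 to 0.58 between miR-203 and scramble, so numbers pair these arrays, which the values show and no label states; between miR-205 and scramble they did so at -0.04 to 0.52. In total RNA no pair with scramble passed 0.1. Alternatives changed the filter, probe sets, scaling, spread prior, arrays in the fit, replicate block and each array in turn.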

Additional observations from a re-analysis of the deposited data

Results flagged for a closer look

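In 8 cases a member was called in opposite directions in AGO2-bound and in total RNA after the same microRNA, with a called difference between the 2 changes in limma's interaction test over 24 arrays (3 per group). With miR-130a this held for 2 of 27 members (7.41%), where it held for 5.85% of all genes. With miR-203 the shares were 2 members (7.41%) and 11.6% of genes, and with miR-205 they were 4 members (14.8%) and 7.08%. The values below are the AGO2-bound change minus the total RNA change, on the log2 scale. SQLE differed by -3.39 ± 0.21 after miR-130a (1.10 in total RNA, -2.28 in AGO2-bound RNA, adjusted p = 1.0e-11) and by -3.64 ± 0.21 after miR-205 (0.96 and -2.68, adjusted p = 1.2e-12). ACAT2 differed by 4.12 ± 0.28 after miR-203 (-1.07 and 3.05), on 1 probe set that was not checked for reading an overlapping gene. PMVK differed by 2.19 ± 0.27 after miR-130a (-0.58 and 1.61). TM7SF2 differed by 1.73 ± 0.26 after miR-203 (-0.56 and 1.16) and by 1.16 ± 0.26 after miR-205 (-0.36 and 0.81). SC5D differed by 1.13 ± 0.18 after miR-205 (-0.25 and 0.88), and HSD17B7 by -0.63 ± 0.15 after miR-205 (0.23 and -0.41). The miR-205 changes of TM7SF2, SC5D and HSD17B7 in total RNA, and those of TM7SF2 and HSD17B7 in AGO2-bound RNA, lost their own calls without at least 1 array. Groups of 3 arrays were too small for a test of single arrays standing apart.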

How the results depend on the processing

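Over 16 comparisons, the counts of members called stayed within 1.5 times the value reported under no filter, the mean of probe sets, quantile normalization, centring and robust settings. With all 24 arrays in 1 model, 8 members were called in total RNA for each microRNA against scramble, and 8 between miR-130a and miR-205. With the replicate number as a block, 15 members were called in AGO2-bound RNA after miR-130a, and no other count moved by over 1.5 times. With single arrays left out, counts ran from 9 to 12 in total RNA after miR-205 and from 10 to 15 in AGO2-bound RNA after miR-203. Of 159 results for members among the 10 of smallest p, none changed direction, and none lost its call under the block, quantile normalization, centring or robust settings. Of these, 9 of 89 lost their call with all arrays in 1 model, 6 of 159 with the mean of probe sets and 2 of 159 without the filter. Centred arrays or quantile normalization moved the share of higher calls among all genes after miR-130a in total RNA from 54.5% to 41.7% or 45.3%. The limits are 3 arrays per group, dim probe sets compressed at the floor, and floors of the values that cannot be told apart from miR-130a or miR-203.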
